A study of Mus musculus with 4 samples.

Results

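The genes described here are the mouse class 3 to class 7 semaphorins, the plexins, the Slits, the Robos, the netrins and the Unc5 receptors, taken by gene symbol from the feature list of the deposited matrices. The rule found 44 of 53703 features and used no measured value. They comprise 7 class 3 semaphorins, 13 semaphorins of classes 4 to 7, 9 plexins, 3 Slits, 4 Robos, 4 netrins and 4 Unc5 receptors.

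These families were first described as guidance cues for growing axons, and most of them are also used by blood vessels and bone cells. Class 3 semaphorins are secreted and signal through plexins, mostly with a neuropilin as co-receptor, whereas semaphorins of classes 4 to 7 are largely held at the cell membrane and bind plexins directly (*Sema7a* also binds integrins). Plexins act on small GTPases and the cytoskeleton. Slits are secreted ligands of Robo receptors, and *Robo4* is the family member typical of endothelium. Netrins are laminin-related secreted proteins whose repulsive signals pass through the Unc5 receptors. In bone, *Sema3a* is known to restrain bone resorption, *Sema4d* is known as a product of osteoclasts that acts on osteoblasts through *Plxnb1*, and *Slit3* is known as a ligand that links bone formation to vessel growth.

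The study asked how loss of LATS2, a Hippo pathway kinase, in the endothelium changes the cells of long bone. Single-cell RNA sequencing (scRNA-seq) was done on 4 libraries, 2 of Lats2iECKO mice and 2 of control mice, all at postnatal week 12. Lats2iECKO animals carried loxP-flanked *Lats2* and a tamoxifen-inducible CreERT2 driven by the *Cdh5* promoter, which is active in endothelial cells, and received tamoxifen in young postnatal life. According to the study's methods the controls were littermates without the Cre transgene that also received tamoxifen, while their sample labels call them untreated. Cells came from the metaphysis of femur and tibia and were depleted of lineage-marked, CD45-positive and CD117-positive cells, so that stromal and vascular cells remained. Libraries are replicates of a genotype, and p-values measure the spread between 2 libraries on each side.

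Libraries held 69636600 to 85899079 unique molecular identifiers (UMIs, counted RNA molecules), and 5119 to 6813 barcodes per library passed the filters. Each barcode was assigned by marker genes to endothelial cells (ECs), bone marrow stromal cells (BMSCs), osteoblasts (OBs), chondrocytes (CHOs), smooth muscle and mural cells (SMCs) or fibroblasts, and 14.0% to 18.4% of barcodes took no class. By cell number, the smallest class in a library was 129 fibroblasts and the largest 2381 CHOs. Lats2iECKO libraries had fewer BMSCs (649 and 807 against 2127 and 2074) and OBs (168 and 184 against 747 and 792), and more CHOs (2165 and 2381 against 1515 and 1568) and SMCs (469 and 525 against 247 and 261). All 11 EC markers were detected in the EC class of every library. *Lats2* in ECs stood at 91.9 and 96.8 counts per 1000000 UMIs of the class (CPM) in Lats2iECKO and at 133 and 121 CPM in control (log2 fold change -0.34 ± 0.08 SE, edgeR adjusted p = 0.0105), and the CreERT2 transcript at 54.8 and 48.3 against 0.67 and 0.85 CPM. Between 6 and 16 barcodes were shared by any pair of libraries. Free RNA, estimated from hemoglobin transcripts, was 0.89% to 1.89% of class sums in Lats2iECKO and 1.28% to 7.24% in control libraries.

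In control bone the members were spread over different cell classes. Of the 44 members, 32 exceeded 10 CPM in at least 1 class, and for 30 of these the 2 control libraries of the highest class lay above both libraries of the next class. Levels are given per gene only and are not compared between genes, since they are not scaled to transcript length. ECs were the class with the highest level for 11 members. Among the ligands these were *Sema3a* (174 and 188 CPM in the 2 control libraries), *Sema3f* (133 and 120), *Sema3g* (191 and 178), *Sema4c*, *Sema6a* (789 and 704), *Sema6b*, *Sema6d* (419 and 388) and *Sema7a* (78.2 and 82.9), and among the receptors *Plxna4* (325 and 285), *Plxnd1* (409 and 374) and *Robo4* (208 and 199). *Robo4* had a mean of 1.12 CPM in the next class.

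BMSCs led for 6 members, including the semaphorin receptor *Plxna2* (957 and 949 CPM), the Robo ligand *Slit3* (784 and 775 CPM) and *Robo1* (276 and 257 CPM). OBs led for 7 members, including *Slit2* (472 and 453 CPM), *Robo2* (516 and 496 CPM), *Sema3d* (349 and 315 CPM), *Sema4d* (178 and 170 CPM) and the netrin receptor *Unc5b* (215 and 199 CPM). CHOs led for 1 member, *Unc5c*, at 1436 and 1290 CPM against a mean of 111 CPM in OBs. SMCs led for *Ntn4* (367 and 356 CPM), *Plxna1*, *Plxnb1* and *Sema5b*, and fibroblasts for *Ntn1* (251 and 283 CPM), *Sema3c* (256 and 257 CPM) and *Sema3e* (277 and 310 CPM). The leading class could not be separated from the next for *Plxnb2* (BMSCs and SMCs) and *Sema4b* (OBs and BMSCs). The remaining 12 members stayed at or under 10 CPM in every class: *Ntn3*, *Ntn5*, *Plxna3*, *Plxnb3*, *Robo3*, *Sema4a*, *Sema4f*, *Sema4g*, *Sema6c*, *Slit1*, *Unc5a* and *Unc5d*.

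**Figure D1:**
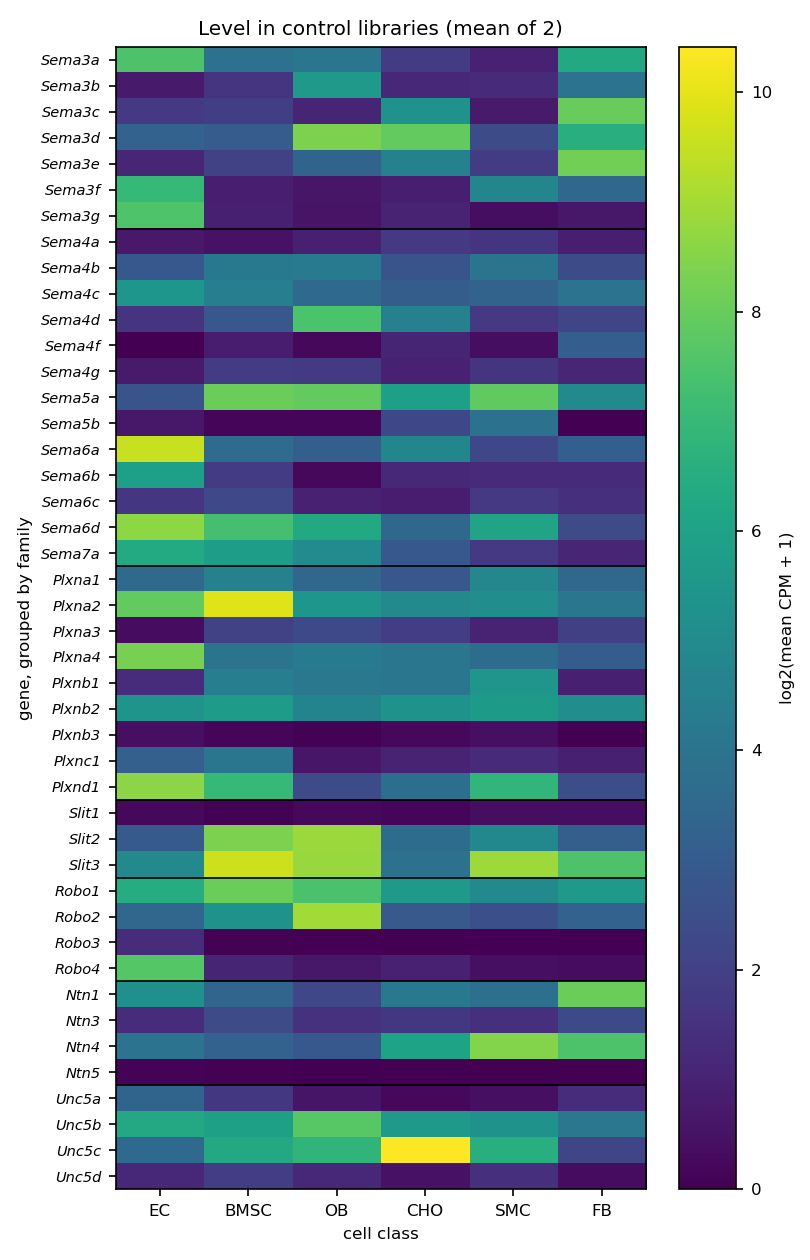
Mean level of the 44 members in the 2 control libraries, as log2(CPM + 1) by colour, with genes in rows grouped by family and the 6 cell classes in columns. *Sema6a* is brightest in ECs (789 and 704 CPM), *Plxna2* in BMSCs (957 and 949 CPM) and *Unc5c* in CHOs (1436 and 1290 CPM).

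Lats2iECKO libraries were then compared with control libraries within each class, with counts summed per library and edgeR's quasi-likelihood test adjusted over all genes tested in that class (adjusted p at most 0.05). At least 40 counts over the 4 libraries were required, which left 3 members untested in every class (*Ntn5*, *Plxnb3* and *Robo3*) and 17 tested in all 6. Of 181 member and class pairs tested, 74 passed, from 34 members. Of these members, 16 were only lower in Lats2iECKO, 6 only higher, and 12 were higher in 1 class and lower in another. Of all genes tested, 33.5% were called in ECs, 20.4% in BMSCs, 5.06% in OBs, 45.3% in CHOs, 31.2% in SMCs and 0.921% in fibroblasts. A split by direction across classes was not counted for all genes. The 7 members tested but called in no class were *Ntn1*, *Ntn3*, *Plxna3*, *Robo4*, *Sema3b*, *Sema4b* and *Unc5d*. *Unc5c* was lower in 4 classes (BMSCs, OBs, CHOs and SMCs), as was *Plxna4* (ECs, BMSCs, CHOs and SMCs). *Sema7a* was higher in 3 (BMSCs, CHOs and SMCs). *Plxna2* was higher in ECs and lower in BMSCs, OBs and CHOs, and *Robo1* was lower in ECs, BMSCs and OBs and higher in SMCs.

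**Figure D2:**
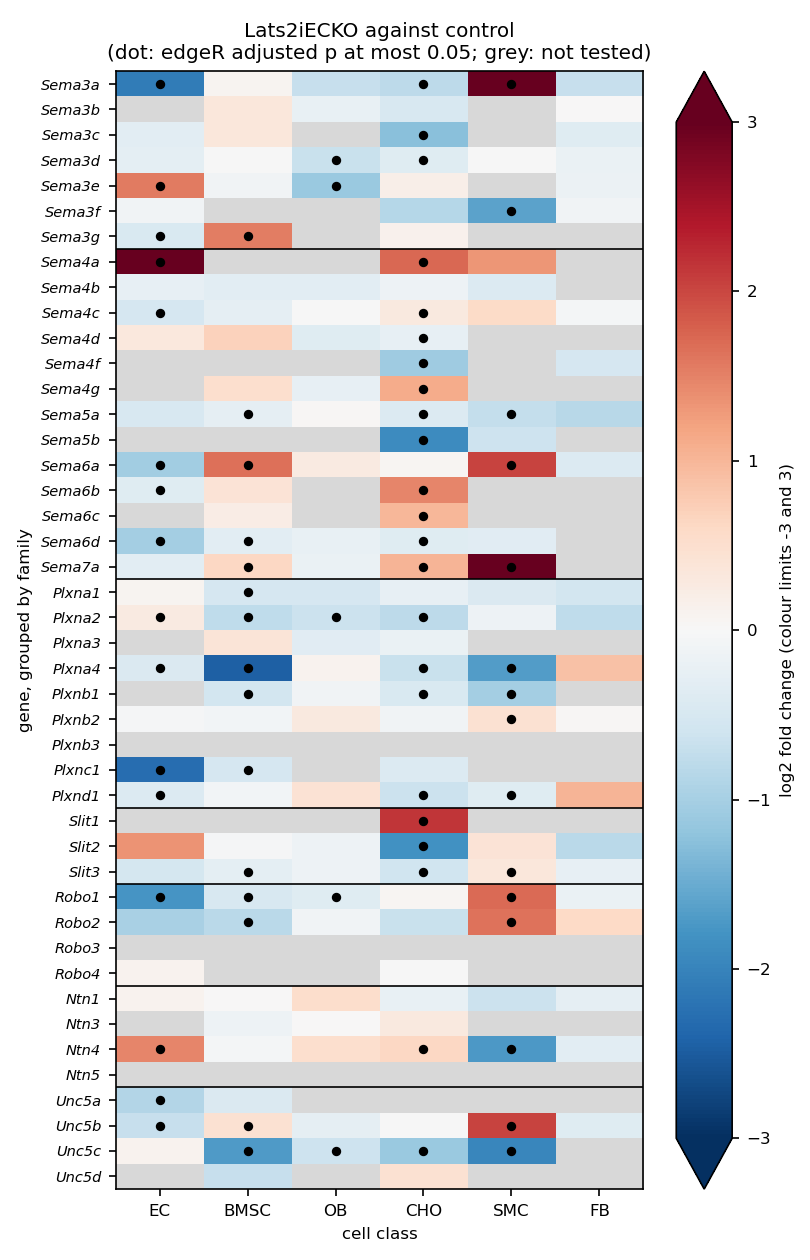
Log2 fold change of each member in Lats2iECKO against control, by colour, in the 6 cell classes; a dot marks an adjusted p of at most 0.05 and grey a pair that was not tested. Dots number 16 in ECs, 15 in BMSCs, 5 in OBs, 23 in CHOs, 15 in SMCs and 0 in fibroblasts. Of all genes tested, 33.5%, 20.4%, 5.06%, 45.3%, 31.2% and 0.921% were called in these classes, in the same order.

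In ECs, the class that carries the deletion, vascular ligands and receptors of these families fell more often than they rose. *Sema3a*, *Sema6a*, *Sema6d* and *Robo1* were lower, and *Ntn4* and *Sema4a* were higher. Of 31 members tested, 12 fell and 4 rose, while 33.5% of all genes tested in ECs were called, 16.2% lower and 17.3% higher. The median log2 fold change was -0.33 over the members tested and -0.002 over all genes tested. Summed osteoblast marker counts in the EC class were also lower in Lats2iECKO (155 and 153 CPM against 457 and 834 CPM over 10 markers), as were SMC markers (327 and 449 against 587 and 640 CPM over 11). The 11 EC markers themselves were lower there (8798 and 8765 against 9899 and 9573 CPM). BMSC markers (1582 and 1572 against 1703 and 1762.5 CPM) and hematopoietic markers (33.3 and 24.1 against 42.9 and 49.5 CPM) were lower as well. The part of these marker lists in the result was not tested.

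Among the secreted ligands, *Sema3a*, a repellent class 3 semaphorin, stood at 48.1 and 33.2 CPM in Lats2iECKO ECs and at 174 and 188 CPM in control ECs. Both Lats2iECKO libraries were below both controls, with a log2 fold change of -2.09 ± 0.13 (SE; edgeR adjusted p = 2.94e-06). *Sema3g*, a semaphorin known from arterial endothelium, stood at 129 and 123 against 191 and 178 CPM (-0.47, adjusted p = 0.00127). *Sema3e*, the ligand of *Plxnd1*, was sparse at 1.78 and 4.58 against 1.17 and 1.19 CPM and passed narrowly (adjusted p = 0.0429). *Ntn4*, a basement membrane netrin, rose from 14.0 and 15.3 CPM in control to 41.8 and 35.3 CPM (log2 fold change 1.47 ± 0.13, adjusted p = 2.99e-05).

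Among membrane-bound semaphorins, *Sema6a*, a ligand and receptor of A-type plexins, was at 346 and 334 CPM in Lats2iECKO and 789 and 704 CPM in control ECs (log2 fold change -1.05 ± 0.07, adjusted p = 5.04e-06). Its relative *Sema6d* was at 195 and 180 against 419 and 388 CPM (-1.03, adjusted p = 6.93e-06). *Sema4c* and *Sema6b* were lower by smaller amounts, with log2 fold changes of -0.51 and -0.36. *Sema4a*, a class 4 semaphorin also known from immune cells, was detected with 52 and 48 UMIs in Lats2iECKO and 4.5 and 3 UMIs in control ECs, that is 10.3 and 7.46 against 0.75 and 0.51 CPM (adjusted p = 6.76e-05). The expected counts are fractional where reads match several genes.

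Among the EC receptors, *Robo1*, a Slit receptor, was at 25.4 and 23.0 CPM in Lats2iECKO and 84.7 and 89.3 CPM in control (log2 fold change -1.77 ± 0.09, adjusted p = 9.31e-07). The endothelial family member *Robo4* was tested and did not pass. *Unc5b*, a netrin receptor of arterial and tip cells, was at 43.9 and 47.1 against 71.3 and 83.9 CPM (-0.68, adjusted p = 5.36e-04), and *Unc5a* was sparse but also lower. Among the plexins, *Plxnd1*, the endothelial receptor of *Sema3e*, was at 285 and 268 against 409 and 374 CPM (-0.42), *Plxna4* at 217 and 208 against 325 and 285 CPM (-0.44), and *Plxnc1*, the receptor of *Sema7a*, at 1.98 and 1.24 against 7.24 and 9.02 CPM (-2.28). *Plxna2* was the 1 plexin that rose, from 252 and 231 to 267 and 284 CPM (0.27, adjusted p = 0.0202). With 1 library left out at a time, *Plxna2*, *Sema3e*, *Sema4c*, *Sema6b* and *Unc5a* lost their call at least once, and the others named here kept it.

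The genotype effect in ECs was also set against the mean effect of the other 5 classes in 1 fit. It was more negative in ECs for *Sema3a* (difference -2.26, edgeR adjusted p = 2.81e-06), *Robo1* (-1.89, adjusted p = 4.62e-09) and *Sema6a* (-1.74, adjusted p = 1.21e-05), and more positive for *Ntn4* (1.70, adjusted p = 8.46e-07). Of all genes in that fit, 14.3% passed.

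ECs were divided by further markers into arterial, sinusoidal and metaphyseal-like cells, and sinusoidal-like cells made up 13.5% and 12.1% of ECs in Lats2iECKO against 24.4% and 26.2% in control. Arterial-like cells made up 30.4% and 28.1% against 24.4% and 22.8%, and metaphyseal-like cells 24.9% and 26.9% against 28.9% and 27.9%. The remaining ECs took no subtype, and they were a larger part of ECs in both Lats2iECKO libraries than in control. Several members kept the same direction in more than 1 subtype. *Sema6a* passed the test in all 3: arterial (314 and 327 against 566 and 487 CPM), sinusoidal (345 and 285 against 754 and 730 CPM) and metaphyseal (355 and 308 against 942 and 837 CPM). *Sema6d* was also lower in all 3, with log2 fold changes of -0.97, -0.56 and -0.83. *Robo1* was lower in sinusoidal-like cells (16.2 and 29.3 against 102 and 105 CPM) and in metaphyseal-like cells (46.5 and 31.1 against 120 and 134 CPM).

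*Sema3a* was mostly a transcript of sinusoidal-like ECs, with 646 and 619 CPM in control and 296 and 217 CPM in Lats2iECKO (log2 fold change -1.23, adjusted p = 1.38e-05). In metaphyseal-like ECs it stood at 10.7 and 9.82 against 9.57 and 15.9 CPM and did not pass (-0.20 ± 0.34, adjusted p = 0.713), and in arterial-like ECs it had at most 4.3 UMIs per library and was not tested. In all ECs, a lower level within sinusoidal-like cells and a lower share of such cells were thus both measured. *Unc5b* was lower in arterial-like cells (70.1 and 73.6 against 179 and 206 CPM, -1.34, adjusted p = 1.84e-05) and, by less, in metaphyseal-like cells (41.5 and 47.5 against 62.2 and 75.9 CPM). *Sema3g* was lower in arterial-like cells (430.1 and 437 against 668 and 676 CPM) and in metaphyseal-like cells (23.2 and 23.8 against 71.5 and 71.1 CPM). *Ntn4* rose in metaphyseal-like cells (18.8 and 30.2 against 4.03 and 8.49 CPM, 2.09 ± 0.38, adjusted p = 0.00399), as did *Robo4* (274 and 293 against 218 and 202 CPM, 0.53, adjusted p = 0.00591). The members called numbered 7 of 21 tested in arterial-like, 5 of 22 in sinusoidal-like and 11 of 22 in metaphyseal-like ECs, beside 13.2%, 10.7% and 22.8% of all genes tested. Differences between subtypes were not tested.

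**Figure D3:**
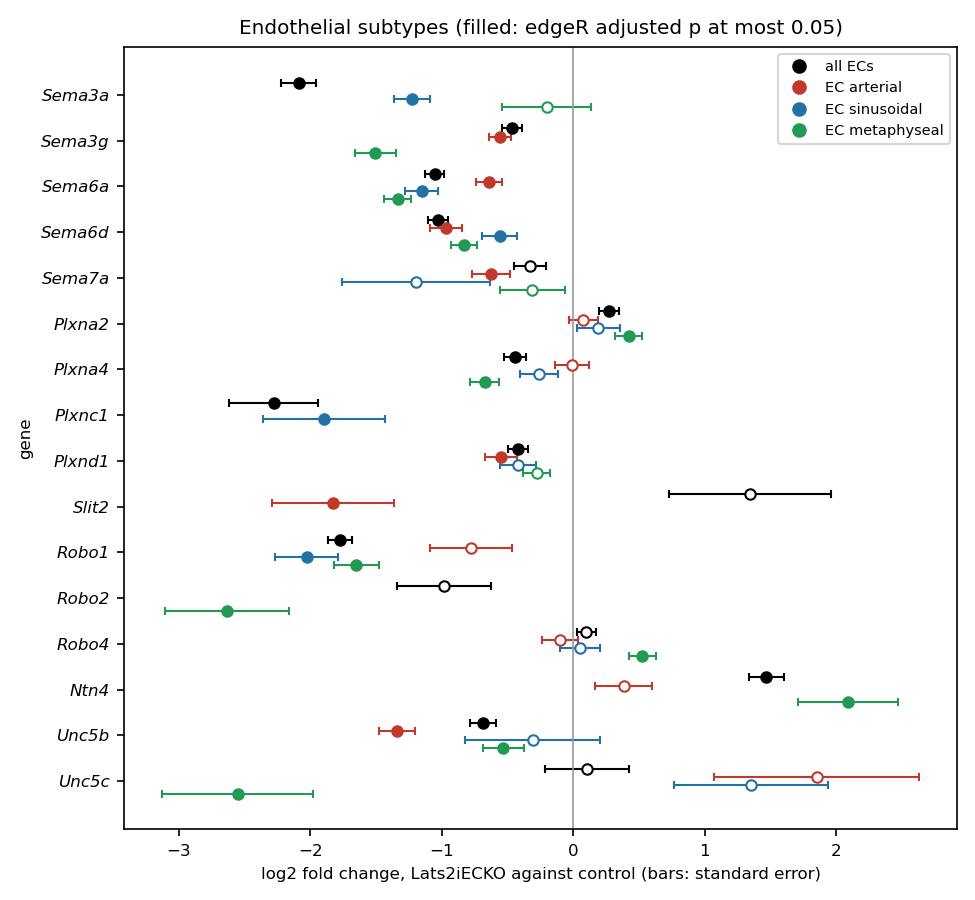
Log2 fold change (points) and its standard error (bars), Lats2iECKO against control, in all ECs and in each subtype, for members called in an endothelial subtype. Members called over all ECs but in no subtype are not shown. Filled points passed an adjusted p of 0.05 and open points did not. *Sema6a* is left of 0 in all ECs and in each subtype, whereas *Sema3a* is lower in sinusoidal-like cells (-1.23) and near 0 in metaphyseal-like cells (-0.20).

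In BMSCs, the stromal cells that support blood formation, 5 of 8 plexins tested, both Robos tested, *Unc5c* and 3 ligands fell, while 3 semaphorins and the receptor *Unc5b* rose. Of 35 members tested, 11 fell and 4 rose, while 20.4% of all genes tested in this class were called, 9.09% lower and 11.4% higher. DESeq2 called 10 members, and edgeR called fewer still without a filter on low counts or with a stricter one, as given at the end. With the stricter filter fewer members were tested, and none of those still tested lost its call. *Unc5c*, a netrin receptor, was at 19.5 and 25.1 CPM in Lats2iECKO and 80.7 and 72.5 CPM in control (log2 fold change -1.70 ± 0.11, adjusted p = 1.75e-05). *Plxna2*, which has its highest level in this class, was at 546 and 536 against 957 and 949 CPM (-0.75 ± 0.06, adjusted p = 3.09e-05). *Robo2* was at 13.7 and 27.6 against 44.6 and 32.6 CPM and passed narrowly (-0.81 ± 0.24, adjusted p = 0.0397), and *Robo1* was at 176 and 188 against 276 and 257 CPM (-0.49). Among the other plexins, *Plxna1*, *Plxnb1* and *Plxnc1* had log2 fold changes between -0.55 and -0.51. *Plxna4* was also called lower (-2.44), but its control libraries were unlike each other, at 22.8 and 7.30 CPM. Beside these receptors, the ligands *Slit3* (572 and 639 against 784 and 775 CPM), *Sema5a* and *Sema6d* were lower by log2 fold changes of -0.32 to -0.28.

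*Sema6a* rose in BMSCs from 12.2 and 10.8 to 31.9 and 36.7 CPM (log2 fold change 1.64 ± 0.12, adjusted p = 2.45e-05), the opposite direction to ECs. Its effect in BMSCs exceeded the mean of the other classes by 1.44 (adjusted p = 0.00297), and that of *Unc5c* was more negative by 1.12 (interaction -1.12, adjusted p = 0.0138), where 3.18% of all genes passed. *Sema7a*, a GPI-anchored semaphorin, rose from 55.2 and 53.7 to 82.9 and 78.5 CPM, *Unc5b* from 57.8 and 61.0 to 74.9 and 80.9 CPM, and the sparse *Sema3g* was called higher at 3.20 and 1.97 against 1.19 and 0.63 CPM. Within clusters that hold both genotypes, described further on, *Sema7a* and *Unc5b* were instead called lower in BMSCs (-0.42 and -0.66). The calls of *Plxna1*, *Plxnc1*, *Sema3g*, *Sema5a*, *Sema6d* and *Slit3* were each lost without 1 of the libraries. Summed hematopoietic markers in BMSCs were at 34 and 22 CPM in Lats2iECKO and 149 and 183 CPM in control. Summed BMSC markers (26263 and 27373 against 31968 and 31662 CPM), OB markers (2469 and 2391 against 3464 and 3381 CPM) and fibroblast markers (129 and 118 against 167 and 170 CPM) were also lower in that class, and CHO markers were at 575 and 490 against 423 and 426 CPM. The part of these marker lists in the results was not tested.

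The diaphyseal-like BMSCs, 76.9% to 77.5% of the cells of the class, gave 14 calls among 34 members tested (19.0% of all genes tested), and the metaphyseal-like BMSCs gave 5 among 27 (8.34%). *Unc5c*, *Plxna2* and *Robo1* were lower and *Sema6a* was higher in both. In metaphyseal-like BMSCs *Plxna2* was at 602 and 668 against 1465 and 1384 CPM (log2 fold change -1.07). Without control replicate 1 the metaphyseal-like count fell to 1 and without control replicate 2 to 2, whereas it was 10 without Lats2iECKO replicate 2. Without Lats2iECKO replicate 1 the diaphyseal-like count was 7. Without a filter on low counts 0 members passed in either subtype, and the diaphyseal-like count was 9 with DESeq2 and 6 with a stricter filter, which leaves fewer genes to test.

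In OBs, the bone-forming cells, 5 of 28 members tested fell and 0 rose, beside 5.06% of all genes tested (1.29% lower and 3.76% higher). In the OB class the summed level of the 10 OB markers was 108961 and 112927 CPM in Lats2iECKO against 142611 and 139682 CPM in control, and that of the 11 SMC markers 238 and 304 against 128 and 111 CPM, and their part in these results was not tested. *Sema3d*, a class 3 semaphorin with its highest level in OBs, was at 222 and 202 CPM in Lats2iECKO and 349 and 315 CPM in control (log2 fold change -0.68 ± 0.09, adjusted p = 0.0023). *Plxna2* was at 24.8 and 30.4 against 41.5 and 44.5 CPM (-0.65 ± 0.13, adjusted p = 0.0221). *Unc5c* was at 64.7 and 81.8 against 116 and 106 CPM (-0.62 ± 0.12, adjusted p = 0.0188). *Robo1* was at 130.0 and 143 against 171 and 172 CPM (-0.35 ± 0.09, adjusted p = 0.0473), and *Sema3e* passed at 5.08 and 3.55 against 8.58 and 9.90 CPM (adjusted p = 0.0484). For each of the 5 the genotypes did not overlap, and the share of all genes without overlap was not counted. Calls numbered 2 with DESeq2, 1 with the replicate number as a block and 1 with classes taken by Leiden cluster. Without control replicate 1 or control replicate 2, most or all calls in OBs were lost. The log2 fold changes were then -0.59 and -0.76 for *Sema3d* and -0.54 and -0.70 for *Unc5c*. Their sign adds nothing here, since both Lats2iECKO libraries lay below both controls from the start. Unadjusted p-values under 0.05 numbered 8 by edgeR, and the share of all genes under that cut was not counted. The OB class held 168 and 184 cells in Lats2iECKO, and *Robo2*, *Slit2*, *Sema4d* and *Unc5b*, which have their highest control level in OBs, did not pass there.

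In CHOs, the cartilage cells, 15 of 40 members tested fell and 8 rose, beside 45.3% of all genes tested (22.7% lower and 22.6% higher), the highest background of the 6 classes. In the CHO class the summed level of the 12 CHO markers was 41574 and 40921 CPM in Lats2iECKO against 61590 and 61770 CPM in control, and that of the 11 SMC markers 1292 and 1280 against 680 and 679 CPM. Fibroblast markers (177 and 192 against 130 and 154 CPM) and skeletal muscle markers (23.6 and 21.9 against 14.7 and 13.4 CPM) were higher. Hematopoietic markers (13.3 and 16.7 against 33.9 and 37.7 CPM) and adipocyte markers (1.24 and 0.93 against 11.0 and 8.89 CPM) were lower. The part of these marker lists in the results was not tested. *Unc5c* had its highest level here and was at 610 and 585 CPM in Lats2iECKO against 1436 and 1290 CPM in control (log2 fold change -1.13 ± 0.05, adjusted p = 1.03e-08). Among the ligands, *Sema3c* was at 15.3 and 15.6 against 39.7 and 37.7 CPM (-1.26 ± 0.06, adjusted p = 1.46e-08), *Slit2* at 2.88 and 3.46 against 11.6 and 11.9 CPM (-1.83) and *Sema3d* at 169 and 184 against 238 and 240 CPM (-0.37). *Slit3*, *Sema3a*, *Sema4d*, *Sema4f*, *Sema5a*, *Sema5b* and *Sema6d* were also lower. Among the receptors, *Plxna2* was at 15.5 and 16.5 against 28.3 and 28.8 CPM (-0.77 ± 0.07, adjusted p = 1.98e-06) and *Plxna4* at 9.05 and 10.3 against 17.8 and 14.4 CPM (log2 fold change -0.67 ± 0.11, adjusted p = 2.94e-04), and *Plxnb1* and *Plxnd1* were lower as well. With classes taken by Leiden cluster the log2 fold change of *Plxna4* was 0.014, so that its fall was no longer seen.

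The members that rose in CHOs were mostly semaphorins of classes 4 to 7 at low levels. *Sema7a* was at 11.8 and 12.9 CPM in Lats2iECKO and 5.53 and 7.16 CPM in control (log2 fold change 1.02, but -0.83 and called lower within clusters that hold both genotypes), and *Sema4a* at 7.60 and 7.23 against 2.79 and 1.88 CPM (1.73). *Sema4c*, *Sema4g*, *Sema6b* and *Sema6c* were higher too, the last 3 at under 4 CPM. *Ntn4* rose from 62.3 and 65.7 to 92.6 and 95.9 CPM (0.62, adjusted p = 1.01e-06). *Slit1* was called higher on 16.5 and 20 UMIs in Lats2iECKO and 5.5 and 0 UMIs in control, and lost its call without control replicate 2. Leaving out 1 library also ended the calls of *Sema3a*, *Sema4c*, *Sema4d*, *Sema4f*, *Sema6c* and *Sema6d* at least once. The fall of *Sema3c* was larger in CHOs than the mean of the other classes by 1.47 (interaction -1.47, adjusted p = 0.0215), where 16.2% of all genes passed.

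In hypertrophic-like CHOs 17 of 35 members passed (44.1% of all genes tested) and in the other CHOs 17 of 37 (30.5%). Of all CHOs, 23.65% in Lats2iECKO and 0.06% in control lay in a cluster led by *Col10a1*, *Rbp4* and *Snorc*, described further on. These subtypes were not compared within clusters of both genotypes. *Ntn4* rose from 9.24 and 9.36 to 39.6 and 48.8 CPM in hypertrophic-like CHOs (log2 fold change 2.32 ± 0.13, adjusted p = 1.36e-06) and from 107 and 112 to 135 and 130.1 CPM in the others (0.36). *Sema7a* rose in hypertrophic-like CHOs from 5.08 and 6.08 to 17.6 and 20.5 CPM (1.83). *Unc5c*, *Slit2*, *Slit3*, *Sema3c*, *Sema3d* and *Plxna2* were lower in both. *Robo1* was lower in hypertrophic-like CHOs (23.3 and 23.8 against 35.8 and 28.8 CPM) and higher in the others (63.7 and 71.0 against 63.6 and 59.3 CPM), and this difference was not tested. The hypertrophic-like count was 10 without Lats2iECKO replicate 1 and 9 without Lats2iECKO replicate 2.

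SMCs were the class gated by smooth muscle and mural cell markers. Of 25 members tested in SMCs, 8 rose and 7 fell, beside 31.2% of all genes tested (16.6% higher and 14.6% lower). Of this class, 55.23% of Lats2iECKO and 2.56% of control cells lay outside the clusters of both genotypes, described further on. The study proposes that *Myh11*-negative cells, enriched in its Lats2iECKO SMC cluster, are myofibroblasts. Whether those are among the cells gated here was not tested. *Sema7a* was detected with 158 and 216 UMIs in Lats2iECKO and 2 and 5 UMIs in control SMCs, or 44.6 and 53.3 against 1.39 and 3.22 CPM (log2 fold change 4.40 ± 0.32, adjusted p = 2.10e-08). *Unc5b* was at 149 and 167 against 41.8 and 37.4 CPM (2.04 ± 0.13, adjusted p = 4.57e-09), although its log2 fold change was -0.73 within clusters that hold both genotypes. *Robo1* (79.6 and 108 against 36.6 and 23.2 CPM), *Robo2*, *Sema6a*, *Plxnb2* and *Slit3* were also higher (*Sema6a* turned to -0.49 with classes taken by Leiden cluster), and *Sema3a* was called on 36 and 27.2 UMIs against 0 and 3 UMIs. In the other direction, *Ntn4*, which has its highest level in control SMCs, was at 108 and 107 against 367 and 356 CPM (-1.72 ± 0.09, adjusted p = 8.32e-10), and the netrin receptor *Unc5c* at 20.3 and 24.9 against 108 and 75.4 CPM (-1.97 ± 0.17, adjusted p = 1.96e-07). *Sema3f*, *Sema5a*, *Plxna4*, *Plxnb1* and *Plxnd1* were lower. Calls of *Plxnb2*, *Plxnd1*, *Robo2*, *Sema6a* and *Slit3* were each lost without 1 of the libraries. Against the mean of the other classes, the SMC effect differed for *Sema7a* (3.84, adjusted p = 6.18e-04), *Unc5b* (2.24, adjusted p = 5.44e-09), *Ntn4* (-2.14, adjusted p = 1.28e-09) and *Unc5c* (-1.40, adjusted p = 0.00139), where 14.2% of all genes passed.

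**Figure D4:**
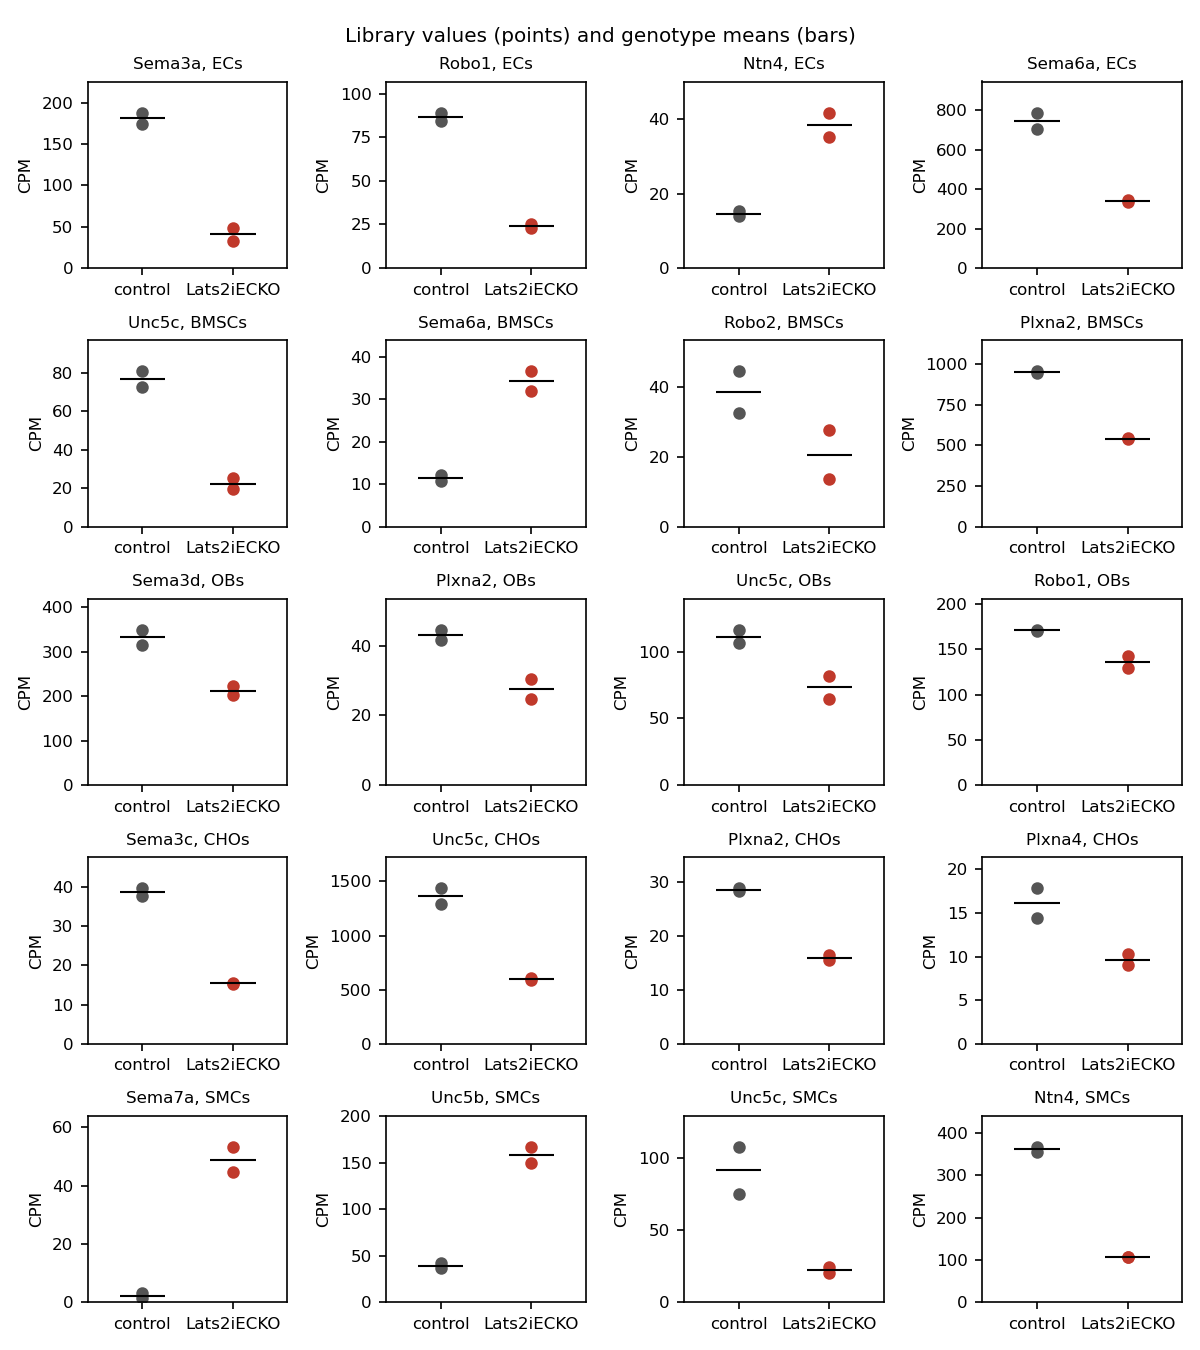
CPM in each library (points) and genotype means (bars) for the up to 4 members per class with the largest called change at 10 CPM or more; each panel has its own axis from 0. Members were also chosen for genotypes that do not overlap, so both Lats2iECKO libraries lie on the same side of both controls in each of the 20 panels.

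The cells behind the SMC, BMSC, CHO and EC values lay partly in different clusters in the 2 genotypes. Libraries were not aligned before clustering. Different kinds of cells and a difference in expression within 1 kind of cell therefore cannot be told apart by clusters. When all barcodes were clustered without the members, 44.57% of Lats2iECKO SMCs and 1.38% of control SMCs fell in a cluster led by *Rgs5*, *Lpl*, *Tagln*, *Acta2* and *Col18a1*, and 8.75% against 0.59% in a cluster led by *Mmp9*, *Mmp13*, *Tnc*, *Lpl* and *Csmd1*. The latter cluster also held 23.42% of Lats2iECKO BMSCs and 2.21% of control BMSCs. Conversely, a cluster led by *Hp*, *Cxcl12*, *Csmd1*, *Rspo2* and *Gdpd2* held 1.79% of Lats2iECKO and 26.35% of control BMSCs. Of CHOs, 23.65% in Lats2iECKO and 0.06% in control fell in a cluster led by *Col10a1*, *Rbp4*, *Snorc*, *Ptgs2* and *Ihh*, and 3.85% against 27.15% in one led by *Mia*, *Col9a1*, *Col2a1*, *Col9a3* and *Cnmd*. The summed level of the 11 SMC markers in the SMC class was 11276 and 11438 CPM in Lats2iECKO and 22495 and 23312 CPM in control. Markers of OBs (277 and 278 against 498 and 489 CPM), fibroblasts (73.4 and 68.6 against 143 and 154 CPM) and adipocytes (25.7 and 20.2 against 63.4 and 83.1 CPM) were lower in that class as well, and their part in the SMC results was not tested. Each class was therefore also compared within those clusters to which both genotypes gave a share of at least 20% after scaling, which held 44.77% of Lats2iECKO and 97.45% of control SMCs, and this comparison was chosen after the data had been seen.

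In SMCs of these shared clusters *Unc5b* was at 12.8 and 19.9 CPM in Lats2iECKO against 34.5 and 23.3 CPM in control, a negative log2 fold change of -0.73 that did not pass (adjusted p = 0.103). Outside them, the Lats2iECKO libraries had *Unc5b* at 239 and 252 CPM and *Sema7a* at 69.3 and 82.0 CPM. *Sema7a*, *Sema3a*, *Sema6a* and *Robo2* had too few counts within the shared clusters to be tested, *Robo1* stood at 30.5 and 31.0 against 29.1 and 21.3 CPM (adjusted p = 0.385), and *Plxnb2* and *Slit3* did not pass. Of the 8 rises in SMCs, 4 were thus not tested and 4 not called within the shared clusters. The falls of *Ntn4* (250.5 and 273 against 377 and 367 CPM, -0.45 ± 0.10, adjusted p = 0.00406), *Unc5c* (44.7 and 62.0 against 107 and 77.1 CPM, -0.72) and *Plxnd1* (-0.44) passed there with smaller sizes for the first pair, whereas those of *Sema3f*, *Sema5a*, *Plxna4* and *Plxnb1* did not. Members called in SMCs numbered 4 of 19 tested in the shared clusters, all 4 lower, beside 9.92% of all genes tested. The last of them was *Sema6d*, at 31.9 and 35.1 against 64.7 and 67.8 CPM (-0.93, edgeR adjusted p = 6.86e-04). It did not pass over all SMCs (-0.35). A change within a cell type and a change in which cells fall in the class cannot be told apart for the 4 members that were tested over the whole class only. The comparison in shared clusters does not separate them either, since counts were pooled over clusters whose shares differed by genotype. A cluster led by *Acta2*, *Tagln* and *Myh11* held 23.14% of Lats2iECKO and 61.81% of control SMCs. Shares also differed for clusters led by *Fabp4* and *Stab2* in ECs (9.79% against 24.94%), *Fat3* and *Tnc* in BMSCs (3.91% against 8.93%) and *Col10a1* and *Pcolce2* in CHOs (5.61% against 16.51%).

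In BMSCs the shared clusters held 73.09% of Lats2iECKO and 70.68% of control cells, and 12 of 34 members tested passed, beside 16.7% of all genes. Here *Sema7a* was at 50.7 and 38.1 against 62.7 and 57.7 CPM (log2 fold change -0.42, adjusted p = 0.0092) and *Unc5b* at 43.7 and 39.7 against 67.1 and 67.4 CPM (-0.66, adjusted p = 2.2e-05), the opposite direction to the whole class. Outside them, where the genotypes lay mainly in different clusters (the *Mmp9* cluster for Lats2iECKO and the *Hp* cluster for control), *Sema7a* was at 162 and 185 CPM and *Unc5b* at 152 and 189 CPM in Lats2iECKO, against 40.6 and 43.7 CPM and 39.9 and 45.1 CPM in control. *Sema7a* in CHOs also turned from higher to lower in the shared clusters (5.36 and 4.60 against 8.54 and 9.75 CPM, -0.83, adjusted p = 0.00679). *Sema6a* stayed higher in BMSCs (20.1 and 20.7 against 9.63 and 9.74 CPM, 1.10), and *Unc5c* (-1.23), *Plxna2* (-0.68) and *Plxna4* (-2.12) stayed lower. Calls of *Plxnc1*, *Sema5a* and *Sema6d* in BMSCs were lost. *Slit2* in BMSCs was lower there (-0.33, edgeR adjusted p = 0.00282), although it did not pass over the whole class (-0.04). In CHOs the shared clusters held 44.53% of Lats2iECKO and 50.46% of control cells, and 15 of 36 members passed beside 25.3% of all genes. Here *Unc5c* (-0.74), *Slit2* (-1.82), *Ntn4* (0.40) and *Sema4a* (1.74) kept their calls, and those of *Sema3c* (-0.34, adjusted p = 0.054), *Plxna4* (-0.12), *Plxnb1* (-0.36), *Sema3a* (-0.36), *Sema4c* (0.36), *Sema4f* (-1.39), *Sema4g* (0.58), *Sema5b* (-1.09), *Sema6c* (0.80) and *Sema6d* (-0.53) were lost. All 10 kept their direction, and the change was no smaller than over the whole class for *Sema4c* (0.30), *Sema4f* (-1.06) and *Sema6d* (-0.36). *Unc5b* (-0.83, edgeR adjusted p = 1.07e-04) and *Sema6a* (-0.32, adjusted p = 0.0417) were lower in these CHO clusters, and *Robo1* was higher (0.44, adjusted p = 0.00264). Over all CHOs these members did not pass (-0.02, 0.05 and 0.07).

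In ECs, 78.21% of Lats2iECKO and 96.3% of control cells lay in shared clusters, and 21.38% against 2.81% fell in a cluster led by *Cdh13*, *Fabp4*, *Cdh5*, *Ctla2a* and *Apln*. In these 15 of 31 members passed, beside 31.0% of all genes tested. Within the shared clusters *Sema3a* (59.0 and 40.1 against 179 and 195 CPM, log2 fold change -1.84), *Robo1* (-1.89), *Sema6a* (-0.83), *Sema6d* (-1.01) and *Sema4a* (4.29) kept their calls. *Ntn4* was still higher, at 22.7 and 22.6 against 13.9 and 14.5 CPM (0.77, adjusted p = 0.00232), which is a smaller change than over all ECs. *Sema3g*, at 176 and 166 against 195 and 184 CPM, no longer passed (-0.06, adjusted p = 0.635), and neither did *Plxna2* (0.16) or the sparse *Sema3e* (1.69 ± 0.74, against 1.56 over all ECs). *Robo4* was lower there (-0.33, adjusted p = 0.0062) and *Ntn1* higher (0.38, adjusted p = 0.0168), although neither passed over all ECs. In OBs, *Sema3d*, *Plxna2* and *Unc5c* passed within the shared clusters, beside 3.48% of all genes, and *Robo1* (-0.25, against -0.35 over all OBs) and *Sema3e* (-0.96, against -1.12) kept their direction but did not pass.

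**Figure D5:**
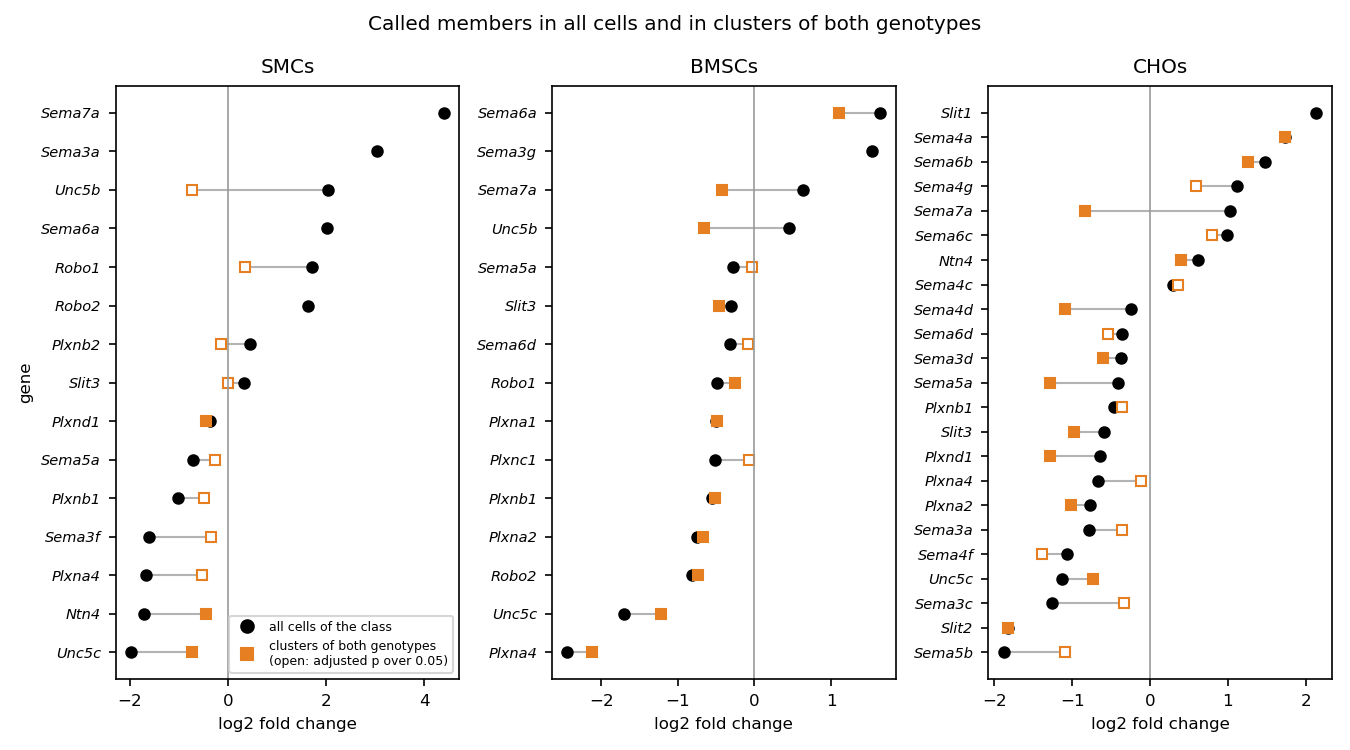
Log2 fold change (horizontal axis) of the members called in SMCs, BMSCs and CHOs, over all cells of the class (black) and over clusters that hold both genotypes (orange; open where the adjusted p was over 0.05, absent where the gene was not tested there). *Unc5b* in SMCs moves from 2.04 to -0.73 and *Sema7a* in BMSCs from 0.63 to -0.42, while *Unc5c* is left of 0 in both comparisons in all 3 classes.

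Since *Sema7a* and *Unc5b* rose together in SMCs and BMSCs and both turned in the shared clusters of BMSCs, the 250 bases before their annotated starts are shown (GRCm39, read from the reference genome, 5′ to 3′ on the strand of the gene). Capitals mark matches to the GC box GGGCGG or its reverse complement CCGCCC, a motif of SP and KLF factors. *Sema7a* lies on chromosome 9 on the plus strand and *Unc5b* on chromosome 10 on the minus strand, so that their windows are chr9:57847125-57847374 and chr10:60667397-60667646.
Sema7a: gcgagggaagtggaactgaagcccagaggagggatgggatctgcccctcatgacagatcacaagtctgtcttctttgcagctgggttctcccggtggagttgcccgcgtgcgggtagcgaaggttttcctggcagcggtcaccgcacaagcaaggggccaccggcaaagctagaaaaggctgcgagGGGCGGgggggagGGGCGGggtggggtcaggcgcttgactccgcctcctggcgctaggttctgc
Unc5b: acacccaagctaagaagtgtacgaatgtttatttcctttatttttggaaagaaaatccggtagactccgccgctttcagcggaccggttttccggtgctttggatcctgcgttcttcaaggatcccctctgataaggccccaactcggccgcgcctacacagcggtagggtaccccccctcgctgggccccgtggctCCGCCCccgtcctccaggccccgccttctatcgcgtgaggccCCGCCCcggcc
Each window holds 2 GC box matches. Over all 44 members 63.6% of such windows hold at least 1, and over 21770 protein-coding genes 36.3%. The sites GGAATG and CATTCC of TEAD factors, the DNA-binding partners of YAP1 and TAZ, occur in neither window, in 4 of 44 members (*Ntn3*, *Ntn4*, *Plxnb1* and *Sema3b*) and in 12.1% of all windows. The CArG box of serum response factor occurs in 0 of 44 members and in 1.4% of all windows. All motifs were searched on both strands, and a match or its absence says nothing on whether a factor binds.

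In fibroblasts 0 of 22 members passed, beside 0.921% of all genes tested by edgeR. At an unadjusted p under 0.05 edgeR gave 6 members and DESeq2 gave 1, and DESeq2 called 0. The share of all genes under that unadjusted cut was not counted. The median log2 fold change was -0.26 over the members tested and -0.0 over all genes tested. This class had 129 and 156 cells in Lats2iECKO and 164 and 171 in control, the smallest of the 6 in control libraries. *Ntn1*, *Sema3c* and *Sema3e*, which have their highest control level in fibroblasts, were all tested.

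Co-receptors, effectors and further ligands of these pathways were counted in 4 lists of 64 genes. In ECs, 12 rose and 19 fell of 52 tested, beside 17.3% of all genes higher and 16.2% lower. The GTPase *Rnd1*, which acts on plexins, rose from 33.9 and 31.1 to 97.4 and 107 CPM (log2 fold change 1.73, edgeR adjusted p = 1.13e-06), whereas *Srgap1*, a GTPase-activating protein that acts after Robo, was at 152 and 148 against 398 and 406 CPM (-1.34, adjusted p = 9.08e-07). *Sdc4*, a heparan sulfate proteoglycan, was higher (1.39) and *Ntng2*, a membrane-anchored netrin relative, lower (-1.39). By list, intracellular effectors gave 7 higher and 11 lower of 30 tested, further netrin and repulsive guidance genes 1 and 4 of 8, semaphorin co-receptors 1 and 3 of 8, and heparan sulfate carriers 3 and 1 of 6.

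In BMSCs 9 rose and 13 fell of 54 tested, beside 20.4% of all genes. The cell adhesion molecule *Chl1*, a semaphorin co-receptor, was at 35.2 and 43.1 against 123 and 115 CPM (log2 fold change -1.54), *Ndnf* was lower (-0.94), and *Mical2* (1.15) and the glypican *Gpc1* (0.68) were higher. In OBs 1 rose and 5 fell of 51 tested (5.06% of all genes), led by the netrin receptor *Dcc*, at 0.48 and 2.2 against 27.9 and 23.5 CPM (-4.16, edgeR adjusted p = 2.32e-04), and by *Ntng1* (-1.80). The OB count depended on the libraries and the gene filter, and fell with the replicate number as a block, as given at the end. In CHOs 17 rose and 23 fell of 58 tested (45.3% of all genes), among them *Rgma* (33.3 and 33.1 against 70.9 and 74.9 CPM, -1.07), *Gpc1* (-0.62), *Rras* (0.87) and *Srgap3* (0.68). In SMCs 11 rose and 14 fell of 47 tested (31.2% of all genes), with the plexin and Wnt partner receptor *Ptk7* at 56.7 and 54.9 against 10.5 and 4.51 CPM (2.95), *Sdc3* (1.69), *Gpc1* (1.55) and the semaphorin co-receptor *Nrp2* (1.40) all higher. In fibroblasts 0 of 48 passed by edgeR (0.921% of all genes).

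Within the clusters of both genotypes, the named pathway genes of ECs kept their calls (*Rnd1* 1.85, *Srgap1* -1.28, *Sdc4* 1.16 and *Ntng2* -1.16), as did *Dcc* (-4.04) and *Ntng1* (-1.68) in OBs. In BMSCs *Chl1* (-0.57) and *Ndnf* (-1.09) stayed lower, whereas *Gpc1* turned to lower at 57.5 and 51.2 against 85.0 and 78.7 CPM (-0.56, edgeR adjusted p = 9.64e-05) and *Mical2* to a negative value that did not pass (-0.85, adjusted p = 0.066). In CHOs *Rgma* (-0.38), *Gpc1* (-0.50) and *Rras* (0.61) kept their calls and *Srgap3* turned to lower (-0.45, adjusted p = 0.0209). In SMCs the pathway calls numbered 9 there, beside 9.92% of all genes tested, and none of the 4 genes named was among them. *Ptk7* had too few counts to be tested (4.26 and 5.39 against 8.63 and 3.99 CPM), *Sdc3* (0.48) and *Gpc1* (0.34) did not pass, and *Nrp2* had a negative value (-0.39, adjusted p = 0.42).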

How the data were processed

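Droplet scRNA-seq (10x Chromium, version 3 chemistry) was measured in the 4 libraries. The authors trimmed reads with cutadapt 3.5, aligned them with STARsolo 2.7.10a (GRCm39, GENCODE genes plus CreERT2 and reporter sequences), and counted exonic and intronic reads. The deposited values are expected counts for all barcodes, not normalized, in which expectation maximization had divided reads that match more than 1 gene. Expected counts were rounded after summing. Because introns are counted, levels of genes that overlap or lie in introns of others are uncertain.

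Barcodes with at least 1000 UMIs, 800 genes, at most 15% mitochondrial and 5% hemoglobin counts and a complexity of at least 0.8 were kept (Scanpy 1.11.5, Python 3.11.15). A barcode took the class whose markers scored highest, with a score of at least 0.15, a runner-up of at most 0.75 times that score and at least 3 markers detected. Subtypes needed at least 0.15 for their markers, or 0.25 for hypertrophic-like CHOs. Doublets were kept in the main result. The 210 to 371 barcodes per library ranked highest by Scrublet scores were removed in an alternative, since its automatic threshold marked as few as 2. Clusters (4000 variable genes without the members, 50 components, 15 neighbours, Leiden resolution 2, no integration of libraries) served only for the comparisons within clusters.

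Counts summed per library and class were tested with edgeR 4.0.16 (R 4.3.3) by quasi-likelihood with TMM normalization and Benjamini-Hochberg adjustment over all genes tested. Fold changes use TMM scaling and CPM plain totals, which shifted the median of all genes by at most 0.091. Genotype effects were compared between classes by an interaction contrast over the 6 classes with the library as a block. Depth, free RNA and class sizes are given in the report, and a class sum of few UMIs carries the counting error of those UMIs. Alternatives were DESeq2 1.42.0, other normalization, gene and cell filters, classes by cluster, doublet removal, free RNA subtraction, the replicate number as a block, each library left out and clusters of both genotypes. The scripts were tested on simulated data.

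The members, the 4 pathway lists and the markers were chosen with earlier results of these data known. Members called in a class are named, with full statistics for the up to 4 per class of largest change at a mean of 10 CPM or more and without overlap between genotypes. Motifs were searched in the 250 bases before each canonical start with pysam 0.24.0. Protein sequences were not used here.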

Additional observations from a re-analysis of the deposited data

Results flagged for a closer look

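Results in this section were picked out because the genotype effect in 1 class differed from the mean effect in the other 5 classes, by edgeR's test of the difference itself, among members with full statistics. In ECs the differences (log2, Lats2iECKO against control, class minus the others) were -2.26 for *Sema3a*, -1.89 for *Robo1*, 1.70 for *Ntn4* and -1.74 for *Sema6a*. In BMSCs they were -1.12 for *Unc5c* and 1.44 for *Sema6a*, and in CHOs -1.47 for *Sema3c*. In SMCs they were 3.84 for *Sema7a*, 2.24 for *Unc5b*, -1.40 for *Unc5c* and -2.14 for *Ntn4*. *Sema6a* and *Ntn4* appear in 2 classes with opposite signs. *Unc5b* in SMCs had a negative log2 fold change (-0.73) within clusters that hold both genotypes, and *Sema7a* in SMCs was not tested there. In those clusters *Sema3c* in CHOs did not pass (-0.34, adjusted p = 0.054), and *Ntn4* (-0.45) and *Unc5c* (-0.72) in SMCs and *Ntn4* in ECs (0.77) passed with smaller log2 fold changes than over the whole class (-1.72, -1.97 and 1.47). *Sema3a* (-1.84), *Robo1* (-1.89) and *Sema6a* (-0.83) in ECs and *Unc5c* (-1.23) and *Sema6a* (1.10) in BMSCs passed there as well. The difference between classes was not tested within those clusters.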

How the results depend on the processing

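Of 74 member and class results, 26 kept their call in every alternative that gave a value and 48 lost it in at least 1. Over 1059 alternative values the call was kept in 914 and lost without a change of sign in 138. In the other 7 the log2 fold change reversed in sign, whether or not it passed. Reversed log2 fold changes were *Sema7a* (-0.42) and *Unc5b* (-0.66) in BMSCs, *Sema7a* (-0.83) in CHOs and *Plxnb2* (-0.14) and *Unc5b* (-0.73) in SMCs within clusters of both genotypes, and *Plxna4* in CHOs (0.014) and *Sema6a* in SMCs (-0.49) with classes taken by Leiden cluster. The cause was not tested.

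Counts of members called that moved by over 1.5 times were as follows. Apart from clusters of both genotypes, the share of all genes called under each alternative is not given, here or below. A move in these counts can therefore not be set against a general change in calls. With DESeq2 they were 2 in OBs, 15 in CHOs and 9 in diaphyseal-like BMSCs. Without a filter on low counts, where more genes enter the adjustment, they were 3 in BMSCs, 8 in OBs, 0 in diaphyseal-like and 0 in metaphyseal-like BMSCs and 8 in hypertrophic-like CHOs. With filterByExpr and a count in 20% of cells, which leaves fewer genes, they were 8 in BMSCs, 5 in CHOs, 6 in diaphyseal-like BMSCs, 10 in hypertrophic-like CHOs and 5 in the other CHOs. Of the 74 results in main classes, 38 were still tested under that filter, and all 38 kept their call. With classes by Leiden cluster OBs had 1, and in clusters of both genotypes OBs had 3, CHOs 15 and SMCs 4. Pathway counts moved to 12 in BMSCs and 15 in SMCs with DESeq2, to 2 in BMSCs, 12 in OBs and 1 in fibroblasts without the filter, to 1 in fibroblasts with filterByExpr, with 2000 UMIs and 10% mitochondrial UMIs, with classes by Leiden cluster and with doublets removed, to 36 in BMSCs with classes by Leiden cluster, and to 25 in CHOs and 9 in SMCs in clusters of both genotypes. Normalization by RLE kept all 74 calls.

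With 1 library left out, members called ranged from 12 to 18 in ECs, 10 to 17 in BMSCs, 0 to 7 in OBs, 20 to 22 in CHOs, 12 to 15 in SMCs, 0 to 1 in fibroblasts, 5 to 8 in arterial-like, 4 to 7 in sinusoidal-like and 9 to 11 in metaphyseal-like ECs, 7 to 14 in diaphyseal-like and 1 to 10 in metaphyseal-like BMSCs, and 9 to 13 in hypertrophic-like and 17 to 19 in other CHOs. Pathway genes ranged from 26 to 31 in ECs, 15 to 26 in BMSCs, 2 to 10 in OBs, 35 to 41 in CHOs, 17 to 22 in SMCs and 0 to 1 in fibroblasts.

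The replicate numbers of the labels name no shared litter or day, and deviations of same-numbered libraries correlated between -0.11 (SMCs) and 0.18 (ECs). With the replicate number as a block, members called were 20 in ECs, 15 in BMSCs, 1 in OBs, 26 in CHOs, 15 in SMCs and 1 in fibroblasts, and pathway genes 1 in OBs and 2 in fibroblasts. The precision of each class is limited by its 2 libraries a genotype.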
